A study of Homo sapiens with 18 samples.

Results

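The genes examined were the folliculin complex (FLCN, FNIP1 and FNIP2), the Rag GTPases (RRAGA, RRAGB, RRAGC and RRAGD) and the MiT/TFE transcription factors (TFEB, TFE3 and MITF). They were taken by symbol, 10 of the 63677 gene identifiers counted, and all 10 were matched and had enough reads to be tested. Polyadenylated RNA was sequenced from HAP1 cells, a near-haploid human line that came from a chronic myeloid leukaemia. The 6 groups, of 3 libraries each, combined 3 lines with 2 media. The lines carried the genotype RB1CC1KO (a knockout of RB1CC1, also called FIP200, a scaffold of the kinase complex that starts autophagy), ATG7KO (a knockout of ATG7, the enzyme that activates the ATG8 and ATG12 proteins) or WT (parental). Cells of each line spent 6 h in EBSS (Earle's Balanced Salt Solution), which has glucose and salts but neither amino acids nor serum, or stayed in Iscove's Modified Dulbecco's Medium with 10% heat-inactivated fetal calf serum (full medium). The libraries of a group were independent biological replicates per the labels. Each genotype was 1 line, so an effect of a knockout and another difference between the lines cannot be told apart, and EBSS removed amino acids and serum at once.

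The Rag GTPases sit on the lysosome as pairs, RagA or RagB with RagC or RagD, and with amino acids present they bring the kinase complex mTORC1 there. Folliculin, bound to FNIP1 or FNIP2, is the GTPase-activating protein of RagC and RagD, and through it mTORC1 is held to phosphorylate TFEB and TFE3, which keeps them in the cytoplasm. When these factors enter the nucleus they switch on lysosomal and autophagy genes, and FLCN, RRAGC and RRAGD have themselves been reported among their targets. Only RNA was measured, so activity, phosphorylation and location of these proteins were not.

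MiT/TFE factors bind DNA at E-boxes such as CACGTG. The 250 bases upstream of the start of FLCN, the gene that rose most, are shown beside those of FNIP1 and RRAGC, which also rose strongly. Those of RRAGB, which changed far less, are shown too. All are RefSeq sequences of build GRCh38.p14, written from 5′ to 3′ on the strand of the gene, with CACGTG in capitals. The windows are chr17:17237169-17237418 (minus strand, FLCN), chr5:131797018-131797267 (minus strand, FNIP1), chr1:38859773-38860022 (minus strand, RRAGC) and chrX:55717499-55717748 (plus strand, RRAGB).
FLCN: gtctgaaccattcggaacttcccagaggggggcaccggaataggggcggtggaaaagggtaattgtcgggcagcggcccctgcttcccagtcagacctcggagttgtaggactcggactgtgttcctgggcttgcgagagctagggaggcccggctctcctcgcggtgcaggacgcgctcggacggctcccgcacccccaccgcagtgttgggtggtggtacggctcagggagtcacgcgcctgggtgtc
FNIP1: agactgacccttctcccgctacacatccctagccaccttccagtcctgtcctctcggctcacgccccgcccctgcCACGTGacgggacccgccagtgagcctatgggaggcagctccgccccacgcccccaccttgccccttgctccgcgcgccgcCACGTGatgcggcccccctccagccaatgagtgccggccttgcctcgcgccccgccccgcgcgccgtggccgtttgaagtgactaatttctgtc
RRAGC: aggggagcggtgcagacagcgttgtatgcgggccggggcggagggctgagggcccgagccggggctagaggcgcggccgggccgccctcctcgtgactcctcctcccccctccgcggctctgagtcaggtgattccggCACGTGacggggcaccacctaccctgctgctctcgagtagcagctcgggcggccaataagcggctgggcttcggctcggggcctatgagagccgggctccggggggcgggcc
RRAGB: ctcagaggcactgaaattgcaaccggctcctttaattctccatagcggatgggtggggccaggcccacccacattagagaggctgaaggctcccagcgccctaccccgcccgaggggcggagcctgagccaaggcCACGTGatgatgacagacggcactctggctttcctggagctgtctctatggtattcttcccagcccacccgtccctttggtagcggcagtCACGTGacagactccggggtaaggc
CACGTG reads the same on both strands. Searched from 250 bases before to 50 after the start, it was found in 7.26% of 35116 RefSeq promoter windows. There were 13 windows for 8 of the genes examined here, with no entry for RRAGA and RRAGD. Among these 13 it began at −175 and −94 in FNIP1, at −112 in RRAGC, and at −115, −25 and 8 in RRAGB, where a positive number counts bases from the start. The related hexamer CATGTG, searched on both strands, was found at −142 in 1 of the windows of FNIP2 and in 11.1% of all windows. TGATGNAA, a form of the amino acid response element bound by ATF4, was searched on both strands and was in 3.62% of all windows and 0 of the 13. A match is only a match of letters.

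Reads in genes ranged from 11994110 to 19073798 per library, apart from 4892072 in ATG7KO EBSS replicate 3 and 26005942 in RB1CC1KO EBSS replicate 2. ATG7 stood at 4.02 ± 0.436 CPM (reads of a gene relative to all reads in genes, TMM-scaled between libraries; SD, n = 3) in ATG7KO cells and at 15.6 ± 1.30 CPM in WT cells in full medium. In EBSS the loss was smaller, with 11.0, 10.2 and 9.97 CPM of ATG7 in ATG7KO cells and 16.0, 17.8 and 14.5 CPM in WT cells (log2 −0.62 ± 0.12, adjusted p = 0.000149, edgeR, against −1.95 ± 0.12, adjusted p = 8.81e-15, in full medium). RB1CC1 was not lowered, with 157 ± 12.7 CPM in the libraries labelled RB1CC1KO and 105 ± 10.3 CPM in WT in full medium. That line is therefore called RB1CC1KO-labelled throughout; a deletion that leaves the transcript in place would not show in these counts. Of the 10 blood cell markers examined, GATA2, TAL1 and RUNX1 were expressed, while GATA1 and MPO had 0 reads in all libraries and PTPRC, which marks white blood cells, averaged at most 0.128 CPM in any group.

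EBSS was followed by a rise of most of the 10 genes in every line. A change was called where the quasi-likelihood test of edgeR gave a p of less than 0.05 after Benjamini-Hochberg adjustment. In RB1CC1KO-labelled cells 8 rose and 2 fell, where 65.1% of all 15179 genes tested passed, 31.9% upward and 33.3% downward. In ATG7KO cells 7 rose and 1 fell, with 62.9% of all genes passing, 32.3% upward and 30.6% downward. In WT cells 7 rose and 1 fell, with 64.5% of all genes passing, 32.4% upward and 32.1% downward. The libraries of the media did not overlap for 10, 9 and 9 of the 10 genes in RB1CC1KO-labelled, ATG7KO and WT cells, against 66.5%, 67.3% and 67% of all genes. With upper-quartile in place of TMM scaling, the median of all genes in WT was log2 −0.17 instead of −0.02, and 37.4% instead of 50.3% of the calls were upward (37.0% instead of 48.9% in RB1CC1KO-labelled and 37.2% instead of 51.3% in ATG7KO cells). Every call on the 10 genes kept its direction under that scaling. Passing the test was thus common in the whole transcriptome, and the sizes of the changes tell more than the counts. A lower total of RNA per cell and fewer cells cannot be told apart in such libraries, and all values are relative to the other RNAs.

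**Figure D1:**
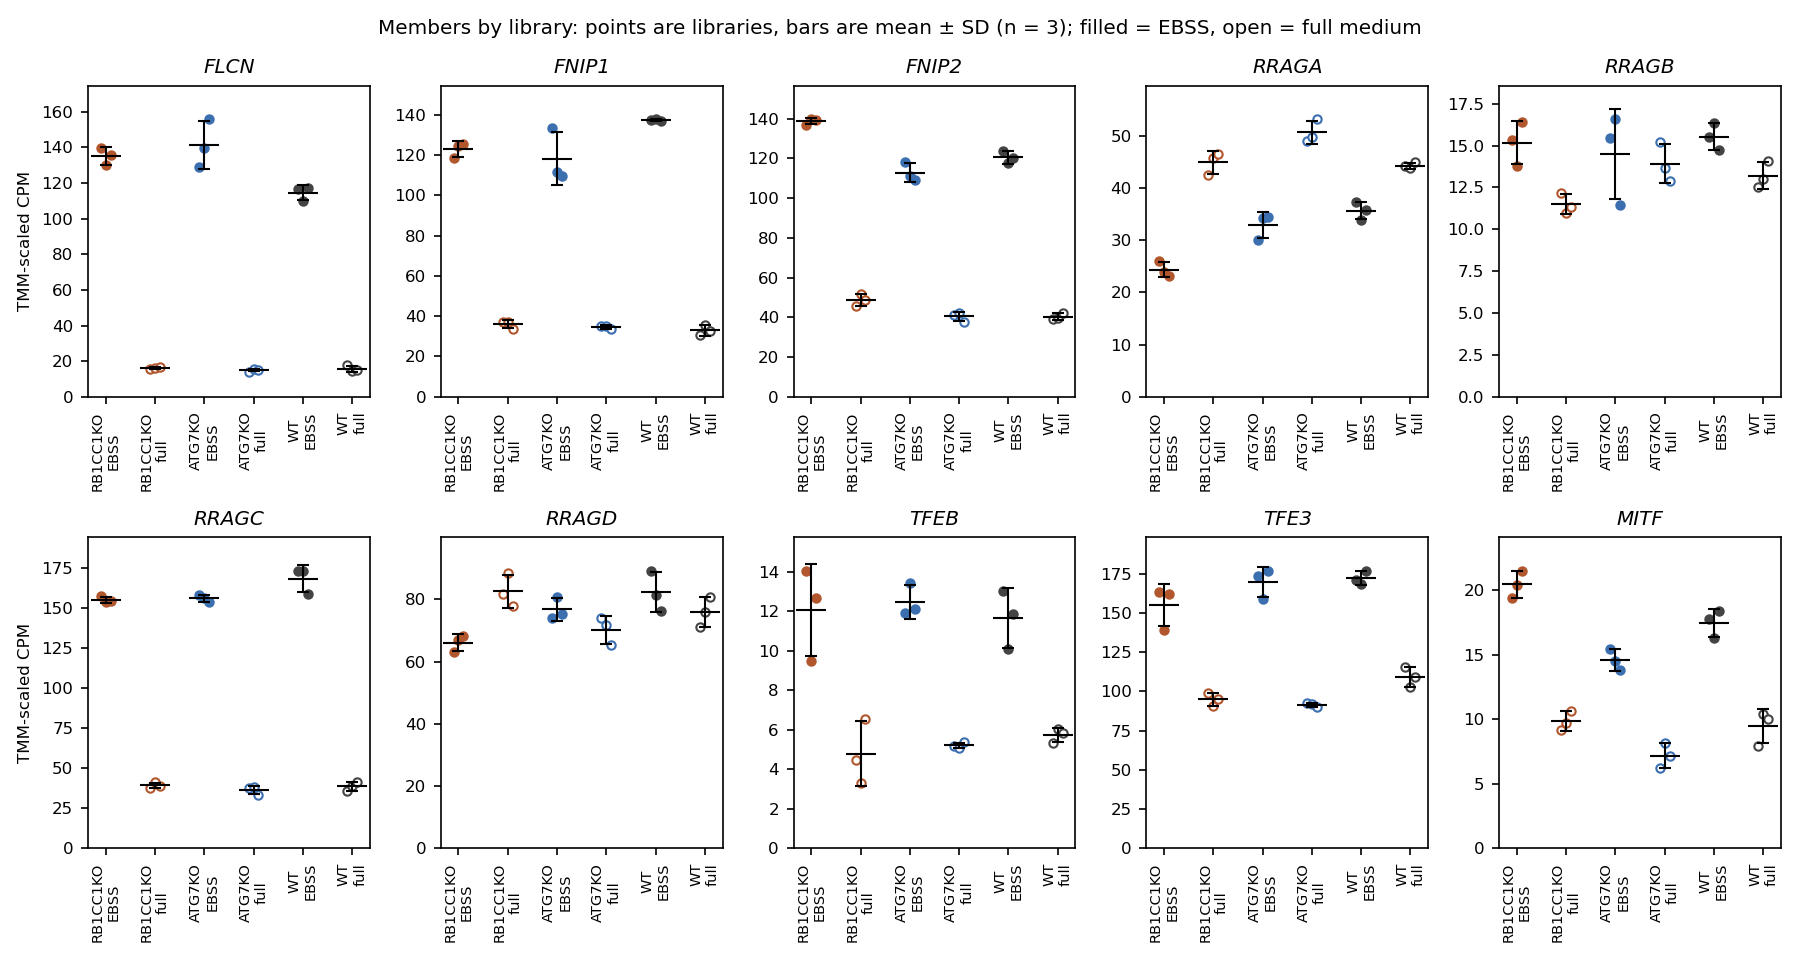
Expression of the 10 genes in all 18 libraries, as TMM-scaled CPM on linear axes that start at 0, by line and medium (filled points EBSS, open points full medium, bars mean ± SD, n = 3). FLCN, FNIP1, FNIP2 and RRAGC stand far apart between the media in every line, whereas RRAGA is lower in EBSS. In EBSS RRAGB is higher and RRAGD lower in RB1CC1KO-labelled cells, and neither passed the test in ATG7KO or WT cells.

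FLCN, the GTPase-activating subunit and a tumour suppressor lost in Birt-Hogg-Dubé syndrome, rose the most. RB1CC1KO-labelled cells held 139.7, 130.0 and 136 CPM of FLCN in EBSS, against 15.7, 16.2 and 16.6 CPM in full medium. In ATG7KO cells it was 129, 139.6 and 156 CPM in EBSS, against 14.2, 15.4 and 15.2 CPM in full medium. In WT cells it was 116, 110.0 and 117 CPM in EBSS, against 17.8, 14.6 and 15.0 CPM in full medium. The lowest starved library was thus several times above the highest fed one in each line. The fold changes were 8.35 in RB1CC1KO-labelled cells (log2 3.06 ± 0.08, adjusted p = 2.79e-27 in edgeR), 9.39 in ATG7KO cells (log2 3.23 ± 0.08, adjusted p = 9.65e-28) and 7.28 in WT cells (log2 2.86 ± 0.08, adjusted p = 4.09e-26), where ± gives the standard error from the test. Ordered from the largest rise, FLCN was at place 249 in RB1CC1KO-labelled, 195 in ATG7KO and 232 in WT cells, of 15179 genes. FLCN (ENSG00000154803) lies on chromosome 17 at 17212212 to 17237188, minus strand, in GRCh38, with 14 exon blocks. A same-strand gene, AC055811.2, shares 11.9% of its annotated exon bases, and the handling of such reads is not known.

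The FNIP proteins are the binding partners of folliculin, and both their genes rose. FNIP1 had 119, 125 and 126 CPM in EBSS and 37.3, 36.9 and 33.6 CPM in full medium in RB1CC1KO-labelled cells. ATG7KO cells held 133, 112 and 109 CPM of FNIP1 in EBSS and 35.2, 35.1 and 33.7 CPM in full medium. WT cells held 138, 138 and 137 CPM in EBSS and 30.5, 35.7 and 32.8 CPM in full medium, so that the WT starved libraries were the highest and the closest to each other. The rise of FNIP1 was 3.42-fold (log2 1.77 ± 0.07, adjusted p = 2.63e-21, edgeR) in RB1CC1KO-labelled, 3.43-fold (log2 1.78 ± 0.07, adjusted p = 6.77e-21) in ATG7KO and 4.14-fold (log2 2.05 ± 0.07, adjusted p = 8.98e-23) in WT cells.

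FNIP2 had 137, 139.6 and 139 CPM in EBSS and 45.8, 51.7 and 48.7 CPM in full medium in RB1CC1KO-labelled cells, the highest of the 3 lines in both media. In ATG7KO cells FNIP2 was 118, 111 and 109 CPM in EBSS and 41.3, 42.2 and 37.7 CPM in full medium. In WT cells FNIP2 was 124, 117 and 120.3 CPM in EBSS and 39.1, 39.5 and 42.2 CPM in full medium. The media did not overlap in any line. FNIP2 rose 2.84-fold (log2 1.51 ± 0.06, adjusted p = 6.93e-21, edgeR) in RB1CC1KO-labelled, 2.80-fold (log2 1.48 ± 0.07, adjusted p = 4.57e-20) in ATG7KO and 2.99-fold (log2 1.58 ± 0.07, adjusted p = 6.36e-21) in WT cells. FNIP1 (ENSG00000217128) lies on chromosome 5 at 131641714 to 131797063, minus strand, and shares 3.54% of its exon bases with AC008695.1. FNIP2 (ENSG00000052795) lies on chromosome 4 at 158769138 to 158908049, plus strand, both in GRCh38.

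The 4 Rag GTPase genes did not move together. RRAGC encodes RagC, the subunit on which folliculin acts, and rose about as much as FNIP1. In RB1CC1KO-labelled cells RRAGC was 157, 154 and 154 CPM in EBSS, against 37.9, 41.2 and 38.9 CPM in full medium. In ATG7KO cells RRAGC was 158, 156 and 154 CPM in EBSS, against 37.7, 38.2 and 33.4 CPM in full medium. In WT cells RRAGC was 173, 173 and 159 CPM in EBSS, against 35.8, 39.0 and 41.3 CPM in full medium. No starved library was near a fed one. The folds were 3.94 in RB1CC1KO-labelled (log2 1.98 ± 0.07, adjusted p = 8.20e-24, edgeR), 4.29 in ATG7KO (log2 2.10 ± 0.07, adjusted p = 3.51e-24) and 4.35 in WT cells (log2 2.12 ± 0.07, adjusted p = 1.90e-24). RRAGC (ENSG00000116954) lies on chromosome 1 at 38838198 to 38859823, minus strand, in GRCh38. A same-strand gene, AL139260.2, shares 22.9% of the annotated exon bases of RRAGC. AL139260.2 was not among the identifiers counted, so reads of it in the shared bases may be counted as RRAGC. Its part in the rise of RRAGC was not tested.

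RRAGD encodes RagD, the closest relative of RagC and a reported target of the MiT/TFE factors, and its RNA behaved otherwise. RB1CC1KO-labelled cells held 63.0, 66.8 and 68.4 CPM of RRAGD in EBSS and 81.6, 88.3 and 77.9 CPM in full medium. ATG7KO cells held 74.1, 80.9 and 75.3 CPM in EBSS and 73.9, 71.7 and 65.3 CPM in full medium. WT cells held 89.2, 81.5 and 76.4 CPM in EBSS and 71.1, 75.9 and 80.6 CPM in full medium. Only in WT did the libraries of the media overlap, and the line labelled RB1CC1KO was the one with all starved libraries below all fed ones. RRAGD fell there by 0.32 ± 0.07 on the log2 scale (adjusted p = 0.000143, edgeR). The values in ATG7KO (log2 0.13 ± 0.07, adjusted p = 0.119) and WT cells (log2 0.12 ± 0.07, adjusted p = 0.146) did not pass the test, and with upper-quartile scaling they were −0.03 in both.

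RRAGA, the major partner of RagC and RagD, fell in every line. In RB1CC1KO-labelled cells RRAGA was 26.0, 23.8 and 23.2 CPM in EBSS, against 42.4, 45.8 and 46.5 CPM in full medium. In ATG7KO cells RRAGA was 30.0, 34.3 and 34.4 CPM in EBSS, against 49.0, 49.8 and 53.2 CPM in full medium. In WT cells RRAGA was 37.2, 33.9 and 35.7 CPM in EBSS, against 44.1, 43.8 and 44.9 CPM in full medium. The media did not overlap in any line, and the distance between them was smallest in WT. RRAGA fell by 0.88 ± 0.08 on the log2 scale in RB1CC1KO-labelled (adjusted p = 3.41e-12, edgeR), by 0.63 ± 0.08 in ATG7KO (adjusted p = 1.55e-08) and by 0.31 ± 0.08 in WT cells (adjusted p = 0.000606). RRAGA (ENSG00000155876) is a gene of 1 exon on chromosome 9 at 19049395 to 19050983, plus strand, in GRCh38.

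RRAGB, a close paralogue of RRAGA on chromosome X, moved little. RB1CC1KO-labelled cells had 15.4, 13.8 and 16.4 CPM of RRAGB in EBSS and 12.1, 11.0 and 11.3 CPM in full medium, a rise of log2 0.39 ± 0.11 (adjusted p = 0.00242, edgeR) that was 0.25 with upper-quartile scaling. ATG7KO cells had 15.4, 16.6 and 11.5 CPM in EBSS and 15.2, 13.7 and 12.9 CPM in full medium, and these ranges overlapped (log2 0.11 ± 0.12, adjusted p = 0.415). WT cells had 15.5, 16.3 and 14.7 CPM in EBSS and 12.5, 13.0 and 14.1 CPM in full medium. These WT libraries did not overlap, but the value (log2 0.24 ± 0.11, adjusted p = 0.0639) did not pass the test. RRAGB (ENSG00000083750) lies at 55717739 to 55758774, plus strand, and RRAGD (ENSG00000025039) on chromosome 6 at 89364636 to 89412270, minus strand, in GRCh38.

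**Figure D2:**
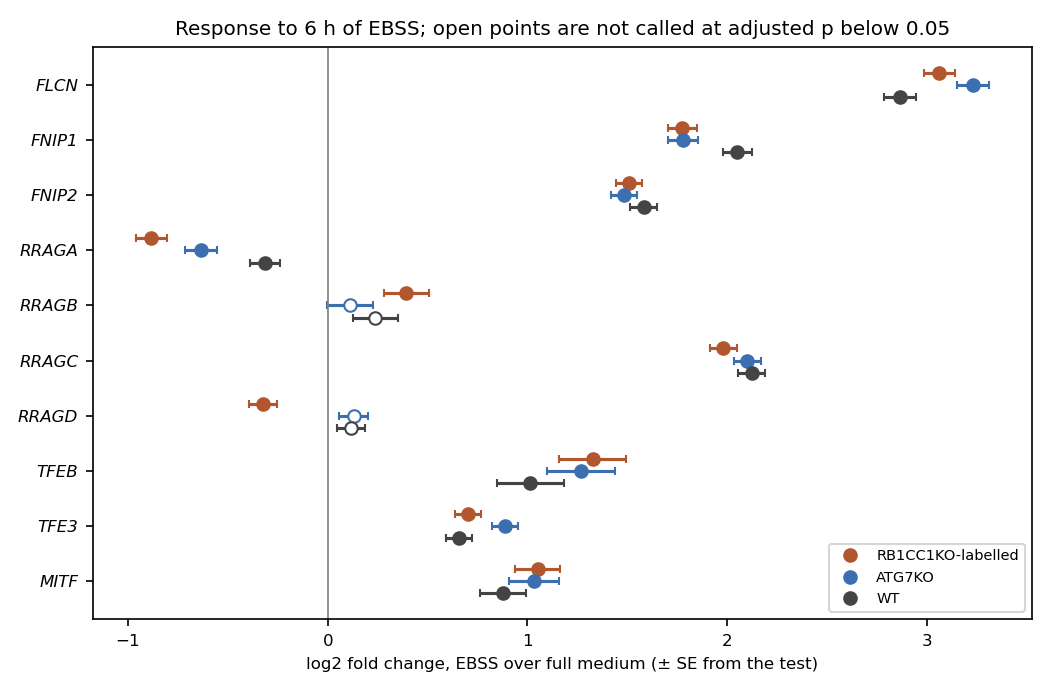
Log2 fold change of EBSS over full medium for each gene and line, with the standard error from edgeR's test; open points did not pass an adjusted p of 0.05. The folliculin complex and RRAGC lie between 1.48 and 3.23, the MiT/TFE factors between 0.66 and 1.33, and RRAGA between −0.88 and −0.31.

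All 3 MiT/TFE genes rose in every line, by less than the folliculin complex. TFE3, which with TFEB drives lysosomal genes in most cell types, had 163, 139 and 162 CPM in EBSS and 99.1, 90.7 and 95.3 CPM in full medium in RB1CC1KO-labelled cells. In ATG7KO cells TFE3 was 173, 159 and 177 CPM in EBSS and 92.4, 92.2 and 89.8 CPM in full medium. In WT cells TFE3 was 171, 168 and 177 CPM in EBSS and 116, 103 and 109 CPM in full medium. The starved libraries were above the fed ones throughout. The rise was log2 0.70 ± 0.07 in RB1CC1KO-labelled (adjusted p = 1.21e-11, edgeR), 0.89 ± 0.07 in ATG7KO (adjusted p = 6.80e-14) and 0.66 ± 0.07 in WT cells (adjusted p = 6.91e-11).

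TFEB, the best known regulator of lysosome formation, was low and its libraries varied more. RB1CC1KO-labelled cells had 14.1, 9.48 and 12.7 CPM of TFEB in EBSS and 4.48, 3.32 and 6.55 CPM in full medium. ATG7KO cells had 11.9, 13.4 and 12.1 CPM in EBSS and 5.18, 5.08 and 5.37 CPM in full medium. WT cells had 13.1, 10.1 and 11.9 CPM in EBSS and 5.34, 6.05 and 5.83 CPM in full medium. Starved and fed libraries did not overlap in any line despite this spread. TFEB rose by log2 1.33 ± 0.17 in RB1CC1KO-labelled (adjusted p = 1.79e-08, edgeR), 1.27 ± 0.17 in ATG7KO (adjusted p = 9.47e-08) and 1.01 ± 0.17 in WT cells (adjusted p = 3.12e-06).

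MITF, best known as the master factor of pigment cells and also used by osteoclasts and mast cells, rose by log2 1.05 ± 0.11 in RB1CC1KO-labelled (adjusted p = 3.13e-10, edgeR), 1.03 ± 0.12 in ATG7KO (adjusted p = 7.26e-09) and 0.88 ± 0.12 in WT cells (adjusted p = 4.51e-08). Its libraries held 19.4, 20.5 and 21.5 CPM in EBSS and 9.20, 9.74 and 10.7 CPM in full medium in RB1CC1KO-labelled cells. ATG7KO cells had 15.4, 14.5 and 13.8 CPM of MITF in EBSS and 6.23, 8.16 and 7.17 CPM in full medium, and WT cells 17.8, 16.3 and 18.4 CPM in EBSS and 7.97, 10.4 and 10.0 CPM in full medium. MITF was lowest in the ATG7KO line in both media. Counts per gene do not separate the promoters of MITF, whose annotated exons form 21 blocks on chromosome 3 from 69739435 to 69968337, plus strand, in GRCh38. TFEB (chromosome 6, 41683978 to 41736259) and TFE3 (chromosome X, 49028726 to 49043486) lie on the minus strand.

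Markers of the cell types known for MITF were examined beside it. Of 10 melanocyte markers, TYR, SOX10, PAX3 and EDNRB had 0 reads in all 18 libraries, and only MC1R and SLC45A2 reached 1 CPM in any group. Summed over the list, the libraries held 10.0 to 12.7 CPM in EBSS and 3.22 to 3.77 CPM in full medium in RB1CC1KO-labelled cells, 6.58 to 11.4 CPM in EBSS and 2.11 to 3.43 CPM in full medium in ATG7KO cells, and 9.26 to 10.1 CPM in EBSS and 2.44 to 4.75 CPM in full medium in WT cells. MC1R, the melanocortin receptor, made most of this sum and rose in WT by log2 1.78 ± 0.21 (adjusted p = 4.34e-09, edgeR). SLC45A2, a melanosome transporter, rose by 4.88 ± 0.87 (adjusted p = 1.08e-05) on few reads, at 0.851 CPM in EBSS and 0.0165 CPM in full medium. PMEL, also tested and about as low, did not pass (−0.17 ± 0.45, adjusted p = 0.761), at 0.656 CPM in EBSS and 0.755 CPM in full medium. Of 7 osteoclast markers ACP5 and DCSTAMP had 0 reads, and 3 were tested. CTSK, a protease also made elsewhere, rose by 2.78 ± 0.28 (adjusted p = 9.97e-11) and NFATC1, a transcription factor, by 0.33 ± 0.09 (adjusted p = 0.00112). TNFRSF11A, the receptor RANK, fell by 0.48 ± 0.08 (adjusted p = 1.86e-06). The osteoclast sum in WT was 91.6 to 95.1 CPM in EBSS and 92.0 to 96.3 CPM in full medium, most of it NFATC1 and TNFRSF11A. In ATG7KO cells this sum was 81.3 to 84.1 CPM in EBSS and 72.3 to 76.1 CPM in full medium, without overlap. In RB1CC1KO-labelled cells it was 88.0 to 96.8 CPM in EBSS and 84.3 to 96.9 CPM in full medium. Of 7 mast cell markers CPA3, TPSAB1 and TPSB2 had 0 reads, and KIT fell by 1.31 ± 0.15 (adjusted p = 2.83e-09). The part of any such cells in the MITF counts was not tested beyond these values.

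Levels of different genes can be set against each other only per length, here as CPM per kb of annotated exon. That length joins all annotated exons of a gene, 9.79 kb for FLCN and 1.59 kb for RRAGA. The transcripts made in these cells may be shorter, so the order of the genes depends on this choice. In full medium RRAGA ranked first in all 3 lines, at 28.3 ± 1.39 in RB1CC1KO-labelled, 31.9 ± 1.40 in ATG7KO and 27.9 ± 0.348 CPM per kb in WT cells (SD, n = 3). TFE3 came next, then RRAGD and RRAGC, and FLCN, MITF and TFEB were the lowest. In EBSS the first place went to TFE3, at 36.2 ± 3.15 in RB1CC1KO-labelled, 39.6 ± 2.22 in ATG7KO and 40.2 ± 1.02 CPM per kb in WT cells, and the second to RRAGC. In WT in EBSS the order was TFE3, RRAGC, RRAGA, FNIP1, RRAGD, FLCN, FNIP2, RRAGB, MITF and TFEB. There the neighbours FNIP1 and RRAGD, FLCN and FNIP2, and MITF and TFEB overlapped between libraries. In WT in full medium the order was RRAGA, TFE3, RRAGD, RRAGC, RRAGB, FNIP1, FNIP2, FLCN, MITF and TFEB, and only FNIP1 and FNIP2 overlapped.

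The balance between paralogues shifted most for RagC and RagD. The RRAGC to RRAGD ratio of levels per kb was 2.31 ± 0.124 in EBSS and 0.468 ± 0.0195 in full medium in RB1CC1KO-labelled cells, 2.00 ± 0.101 in EBSS and 0.509 ± 0.0122 in full medium in ATG7KO cells, and 2.01 ± 0.0956 in EBSS and 0.501 ± 0.00551 in full medium in WT cells (SD, n = 3). RRAGD was thus the more abundant RNA of the pair in all fed libraries and RRAGC in all starved ones. The RRAGC values may include reads of the overlapping gene AL139260.2, which was not tested. The summed level of RRAGC and RRAGD in WT was 48.8 ± 2.71 CPM per kb in EBSS and 22.5 ± 1.47 in full medium, while that of RRAGA and RRAGB was 28.1 ± 0.921 in EBSS and 32.7 ± 0.616 in full medium. The RRAGA to RRAGB ratio was 2.76 ± 0.291 in EBSS and 6.73 ± 0.644 in full medium in RB1CC1KO-labelled cells, 4.01 ± 0.991 in EBSS and 6.28 ± 0.766 in full medium in ATG7KO cells, and 3.94 ± 0.333 in EBSS and 5.77 ± 0.298 in full medium in WT cells. RRAGA remained the more abundant of that pair in every library. TFE3 made up 87.9 to 91.7% of the summed MiT/TFE level as a group mean, with the lowest share in starved RB1CC1KO-labelled cells.

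**Figure D3:**
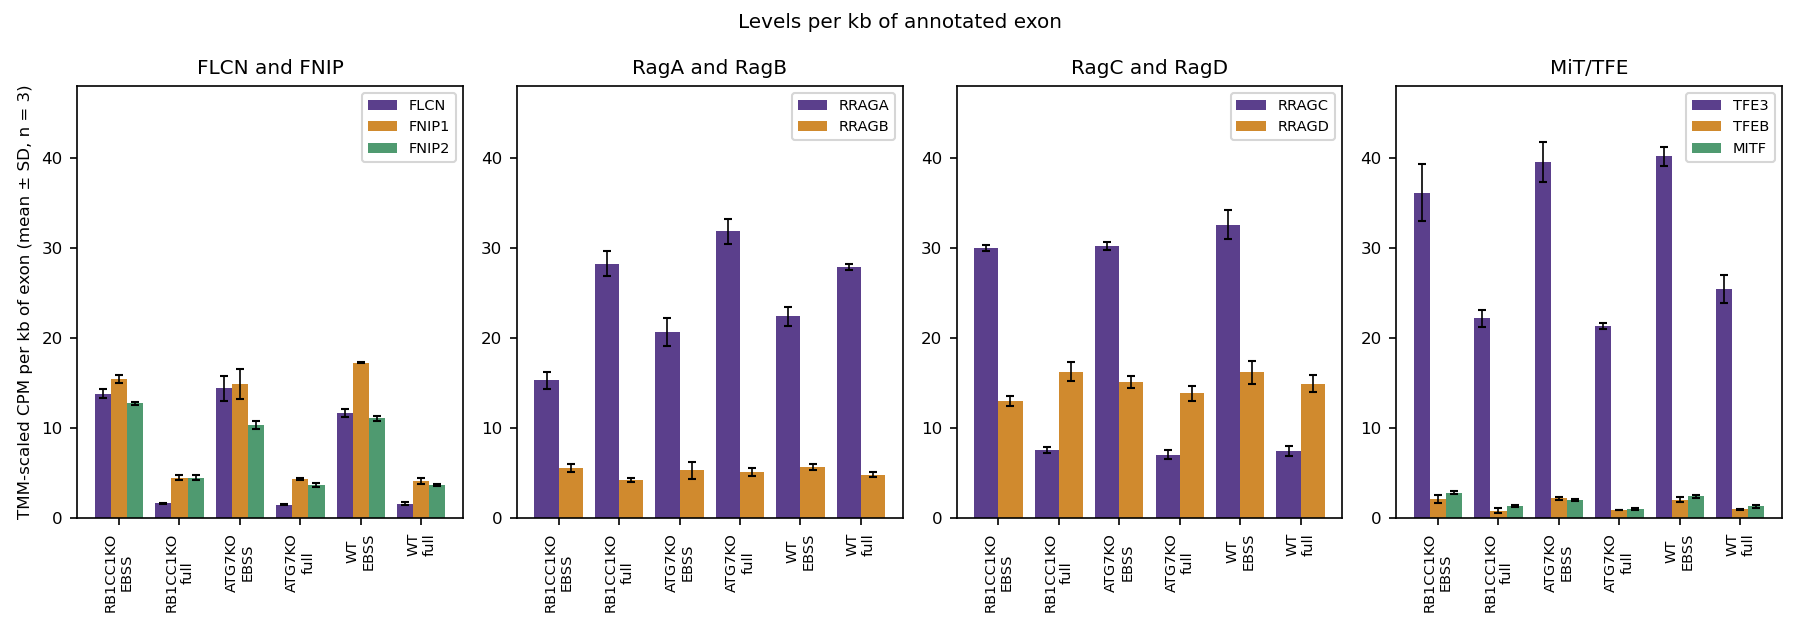
Levels per kb of annotated exon (TMM-scaled CPM per kb, bars mean and error bars SD, n = 3), by line and medium, on 1 linear scale from 0. RRAGC stands above RRAGD in EBSS and below it in full medium in all 3 lines, RRAGA stays above RRAGB, and TFE3 far above TFEB and MITF.

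Fewer of the 10 genes differed between lines than between media. RB1CC1KO-labelled over WT cells in EBSS gave 2 higher and 2 lower of the 10 genes, with 31.6% of all genes passing, 14.8% higher and 16.9% lower. The libraries of the lines did not overlap for 8 of the 10, against 41.4% of all genes. RRAGA was lower by log2 −0.55 ± 0.08 (adjusted p = 1.27e-06, edgeR) and RRAGD by −0.32 ± 0.07 (adjusted p = 0.000662), at the library values given above. FLCN was higher by 0.24 ± 0.07 (adjusted p = 0.00647) and FNIP2 by 0.20 ± 0.06 (adjusted p = 0.00997). No library of these 4 genes overlapped between the lines. In full medium 17.2% of all genes passed, 8.3% higher and 8.87% lower, and 3 of the 10 genes had libraries apart, against 31.5% of all. There FNIP2 was higher in RB1CC1KO-labelled than in WT cells by 0.28 ± 0.07 (adjusted p = 0.00324) and TFE3 lower by −0.20 ± 0.07 (adjusted p = 0.0341). Without RB1CC1KO full medium replicate 2 neither passed (adjusted p = 0.0617 for FNIP2 and 0.116 for TFE3), and without WT full medium replicate 1 TFE3 did not (adjusted p = 0.182). TFEB, at −0.27 ± 0.18 (adjusted p = 0.342), came to −0.59 (adjusted p = 0.0350) without RB1CC1KO full medium replicate 3.

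ATG7KO over WT cells in EBSS gave 1 gene higher and 1 lower, with 13.2% of all genes passing, 6.07% higher and 7.17% lower, and 4 of the 10 had libraries apart, against 27.6% of all genes. FLCN was higher by log2 0.29 ± 0.07 (adjusted p = 0.00262, edgeR), with all ATG7KO libraries above all WT ones. FNIP1 was lower by −0.21 ± 0.07 (adjusted p = 0.0403), a call lost when any 1 of 5 of the 6 libraries was left out, with adjusted p from 0.0681 to 0.209. In full medium 2 genes were lower in ATG7KO cells, where 10.5% of all genes passed, 4.47% higher and 6.07% lower, and 2 of the 10 had libraries apart, against 29% of all genes. TFE3 differed by −0.25 ± 0.07 (adjusted p = 0.00876), or 0.0716 without WT full medium replicate 1. MITF differed by −0.40 ± 0.13 (adjusted p = 0.0336) with overlapping libraries. That call was lost without ATG7KO full medium replicate 1 (adjusted p = 0.201) or 3 (0.0765), and without WT full medium replicate 2 (0.179) or 3 (0.112).

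Markers of blood cells and mast cells differed between the ATG7KO and WT lines as well. The 10 blood cell markers summed to 69.8 to 70.4 CPM in ATG7KO and 76.2 to 86.4 CPM in WT libraries in EBSS, and to 73.1 to 74.7 CPM in ATG7KO and 98.4 to 112 CPM in WT libraries in full medium. TAL1, a transcription factor of blood progenitors, was lower in ATG7KO than in WT cells by −3.60 ± 0.16 in EBSS (adjusted p = 3.80e-19, edgeR) and by −1.91 ± 0.10 in full medium (adjusted p = 1.57e-17). RUNX1, another such factor, was lower by −0.71 ± 0.12 in full medium (adjusted p = 7.53e-05), and its −0.41 ± 0.15 in EBSS did not pass (adjusted p = 0.0605), nor did GATA2 in either medium. KIT, the stem cell factor receptor of the mast cell list, was lower by −3.00 ± 0.27 in EBSS (adjusted p = 1.36e-10) and −2.44 ± 0.17 in full medium (adjusted p = 1.11e-13). Between RB1CC1KO-labelled and WT cells none of these 4 passed in EBSS, and in full medium TAL1 was higher by 0.46 ± 0.08 (adjusted p = 9.41e-05) and GATA2 lower by −0.27 ± 0.08 (adjusted p = 0.0181). On the osteoclast list, TNFRSF11A was lower in ATG7KO than in WT cells by −0.59 ± 0.09 in EBSS (adjusted p = 3.21e-06, edgeR). In full medium it was lower by −0.58 ± 0.08 (adjusted p = 7.82e-07). NFATC1 and CTSK did not pass in either medium. The part of these markers in the differences of the 10 genes between lines was not tested.

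**Figure D4:**
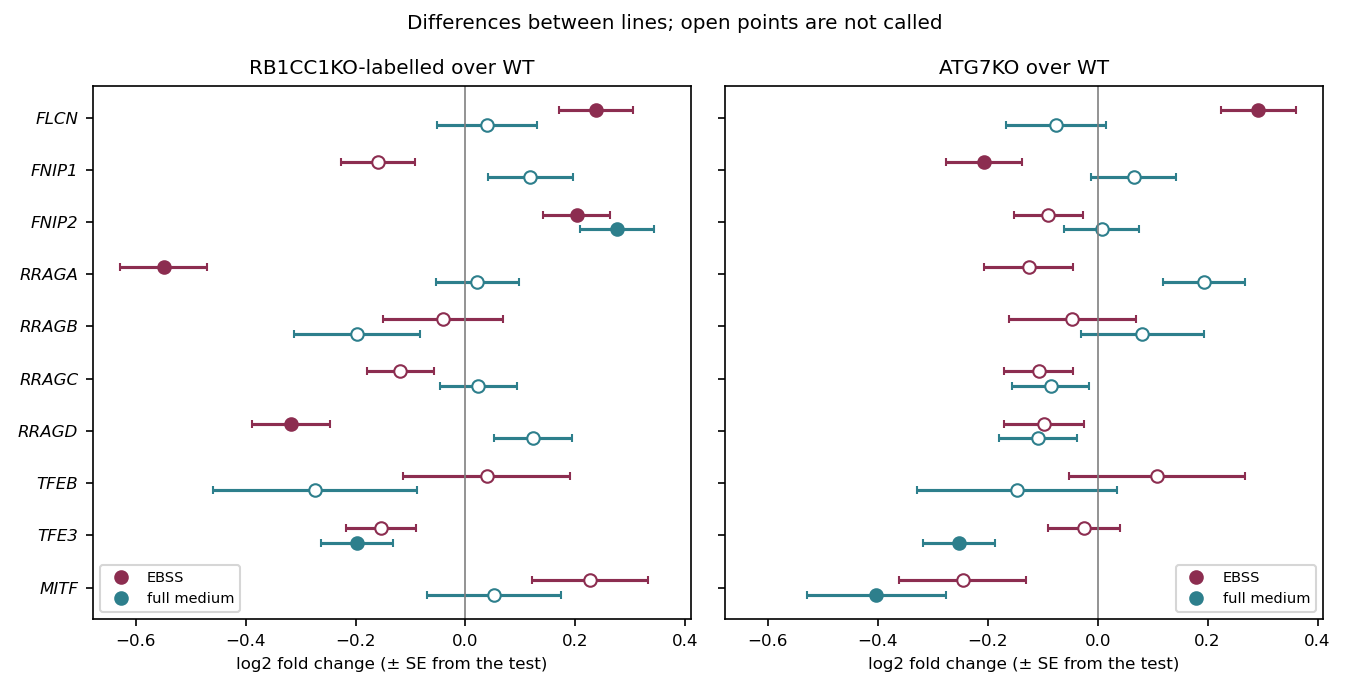
Log2 fold change of each knockout-labelled line over WT in EBSS and in full medium, with the standard error from edgeR's test; open points did not pass an adjusted p of 0.05. RRAGA and RRAGD of the RB1CC1KO-labelled line in EBSS are the lowest points among the calls of the left panel, at −0.55 and −0.32, and none of the 10 genes passed in more than 1 medium except FNIP2 in that line.

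The difference of the EBSS responses between lines was tested as an interaction. For RB1CC1KO-labelled minus WT cells it passed for RRAGA (log2 −0.57 ± 0.11, adjusted p = 0.000661, edgeR) and RRAGD (−0.44 ± 0.10, adjusted p = 0.00387), with 8.16% of all genes passing, 2.68% upward and 5.47% downward. It did not pass for the other 8 genes. FNIP1 was nearest at −0.28 ± 0.10 (adjusted p = 0.0915), and came to −0.34 (adjusted p = 0.0486) without WT full medium replicate 2. For ATG7KO minus WT cells 0 of the 10 genes passed with edgeR's quasi-likelihood test and 0 with DESeq2. Of all 15179 genes, 1.05% passed with edgeR, 0.369% upward and 0.685% downward, and 234 genes passed with DESeq2. Nearest to passing with edgeR were FLCN (0.37 ± 0.11, adjusted p = 0.108), RRAGA (−0.32 ± 0.11, adjusted p = 0.156), FNIP1 (−0.27 ± 0.10, adjusted p = 0.201) and TFE3 (0.23 ± 0.09, adjusted p = 0.235). FNIP1 passed (adjusted p = 0.0281) at −0.41 without ATG7KO EBSS replicate 1. The comparisons of both lines with WT share the WT libraries.

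The neighbours of these genes in the pathway were counted in EBSS over full medium in WT, with a median of all genes tested of log2 −0.02, where 32.4% of all genes rose and 32.1% fell. These lists were drawn up with earlier results of these data known and are given as counts. Of the 5 Ragulator subunits, which anchor the Rags to the lysosome, 2 rose and 3 fell, with a median of −0.38. LAMTOR3 rose by 0.55 ± 0.08 (adjusted p = 2.01e-07, edgeR), whereas LAMTOR2 (−0.71 ± 0.13, adjusted p = 9.53e-06), LAMTOR1 (−0.46 ± 0.08, adjusted p = 6.28e-06) and LAMTOR4 (−0.38 ± 0.11, adjusted p = 0.00284) fell. Of 13 tested genes of amino acid sensing above the Rags, 1 rose, 6 fell and 6 did not pass, with a median of −0.16. BMT2, the S-adenosylmethionine sensor also called SAMTOR, was the one that rose, by 1.29 ± 0.12 (adjusted p = 9.43e-12). KICS2, a subunit of the KICSTOR complex that places GATOR1 on the lysosome, fell by 1.63 ± 0.16 (adjusted p = 8.72e-11). The leucine-binding GTPase genes SAR1B (−0.63 ± 0.07, adjusted p = 4.75e-09) and SAR1A (−0.46 ± 0.07, adjusted p = 1.47e-07) fell as well.

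Among the 6 genes of the mTORC1 core, 4 rose and 2 fell (median 0.28). RHEB, the GTPase that activates mTORC1, rose by 0.50 ± 0.07 (adjusted p = 1.13e-07, edgeR), as did the inhibitory subunits DEPTOR (0.86 ± 0.14, adjusted p = 1.75e-06) and AKT1S1 (0.38 ± 0.07, adjusted p = 2.15e-05). RPTOR, whose protein docks on the Rags, fell by 0.69 ± 0.08 (adjusted p = 8.40e-09). Of 6 tested AMPK subunits, 3 rose, 2 fell and 1 did not pass (median 0.17). PRKAB2, a regulatory beta subunit, rose by 0.67 ± 0.08 (adjusted p = 1.54e-09), and PRKAA1, a catalytic subunit, fell by 0.30 ± 0.07 (adjusted p = 0.000648). AMPK phosphorylates FNIP1. Of 3 genes of the C9orf72 complex, a relative of the folliculin complex by its DENN domains, SMCR8 rose by 0.86 ± 0.08 (adjusted p = 3.39e-12), and C9orf72 (−0.25 ± 0.12) and WDR41 (−0.02 ± 0.07) did not pass.

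Of 10 genes that regulate where MiT/TFE factors reside, 8 rose, 1 fell and 1 did not pass in WT (median 0.45), and the counts were the same in RB1CC1KO-labelled (median 0.38) and ATG7KO cells (median 0.51). Of all genes, 31.9 to 32.4% rose and 30.6 to 33.3% fell in the 3 lines. The list holds genes that act in opposite directions. GSK3B, a kinase that favours their export or retention in the cytoplasm, rose by 1.31 ± 0.06 (adjusted p = 2.88e-19, edgeR), and MAP4K3, a kinase of TFEB, by 0.88 ± 0.07 (adjusted p = 7.84e-14). PPP3R1 (0.71 ± 0.06, adjusted p = 9.45e-12) and PPP3CB (0.69 ± 0.07, adjusted p = 3.20e-10), subunits of the phosphatase calcineurin that acts on TFEB, rose too.

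Reported MiT/TFE targets other than the genes examined here were counted as a further list. MCOLN1 is in this list and also in that of the genes that regulate where the factors reside. Of 33 tested, 18 rose and 5 fell in RB1CC1KO-labelled (median log2 0.25), 22 rose and 3 fell in ATG7KO (median 0.49) and 21 rose and 3 fell in WT cells (median 0.38), while the medians of all genes were −0.03, −0.01 and −0.02. Of all genes, 31.9% rose and 33.3% fell in RB1CC1KO-labelled, 32.3% rose and 30.6% fell in ATG7KO and 32.4% rose and 32.1% fell in WT cells. UVRAG, which acts in autophagosome maturation, rose in WT by 1.59 ± 0.08 (adjusted p = 2.47e-18, edgeR) and MAP1LC3B, an ATG8 protein of the autophagosome, by 1.31 ± 0.06 (adjusted p = 1.44e-19). The lysosomal sialidase NEU1 (1.15 ± 0.07, adjusted p = 8.99e-16) and ATP6V1B2, a subunit of the proton pump (0.98 ± 0.06, adjusted p = 5.62e-16), rose as well. The lysosomal enzymes SGSH (−0.90) and CTSA (−0.37) were among those that fell, and they are named after their values were seen. In EBSS, 2 of the 33 were higher and 12 lower in RB1CC1KO-labelled than in WT cells, against 14.8% and 16.9% of all genes, with a median of −0.14. In ATG7KO over WT cells in EBSS 0 were higher and 2 lower, against 6.07% and 7.17% of all genes, so the lower share was near that of all genes. In full medium NAGLU, a lysosomal enzyme, was lower in RB1CC1KO-labelled than in WT cells by −0.90 ± 0.12 (adjusted p = 2.93e-07) and CLCN7, the lysosomal chloride transporter, by −0.44 ± 0.09 (adjusted p = 0.00152).

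**Figure D5:**
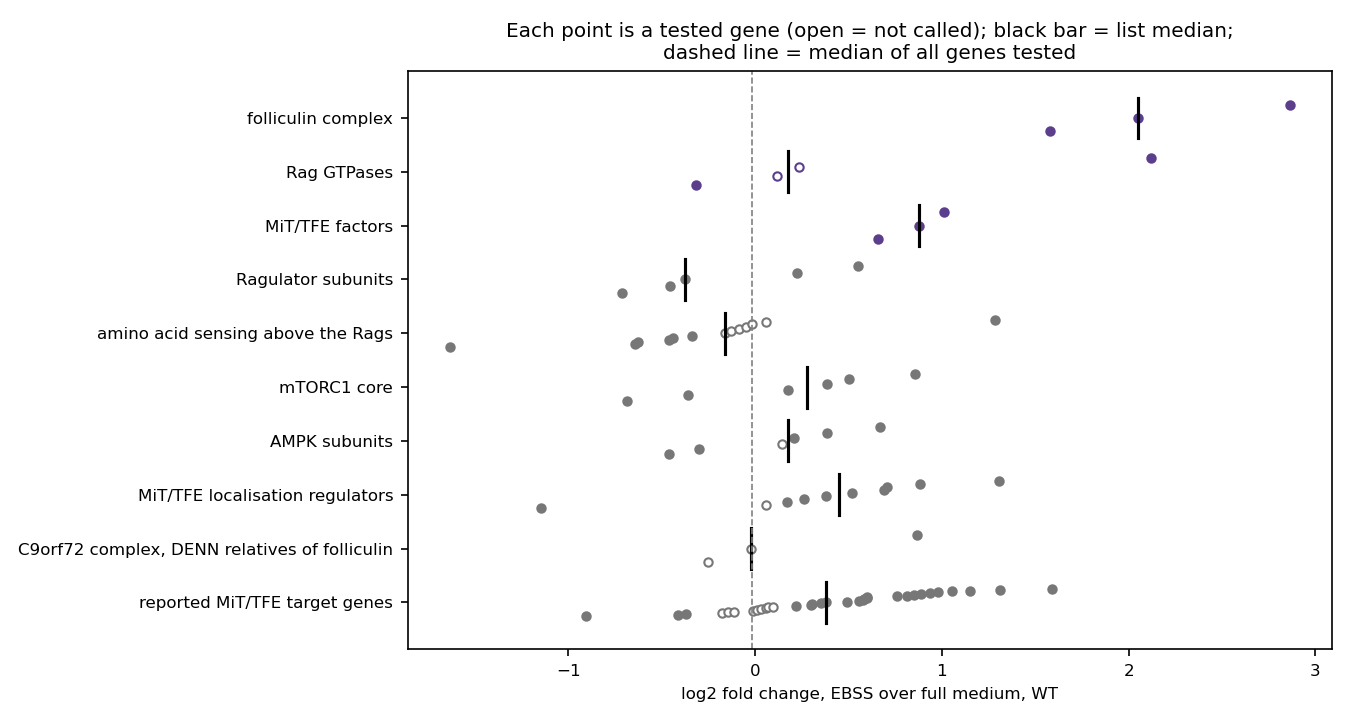
Log2 fold change of EBSS over full medium in WT for every tested gene of each list (points; open where the adjusted p was 0.05 or more), with the list median as a black bar and the median of all genes tested (−0.02) as a dashed line. The 3 genes of the folliculin complex lie at 1.58 to 2.86, beyond nearly all genes of the other lists, and RRAGC stands apart from the other 3 Rag genes at 2.12.

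The patterns over the 18 libraries were compared as Pearson correlations of log2 CPM with 11275 protein-coding genes. These libraries share lines and media, so r mostly reflects how 2 genes follow the medium, and it carries no test. FLCN was most like ASNS (asparagine synthetase), PHGDH (the entry enzyme of serine synthesis) and WARS1 (tryptophanyl-tRNA synthetase), each at r = 0.997. RRAGC was most like AURKA, KLHL24 and CCNG2 (r = 0.998), and FNIP1 like SLF2, MEX3C and PRC1 (r = 0.996 to 0.998). RRAGC itself ranked 9 in likeness to FNIP1 (r = 0.995) and 76 to FLCN (r = 0.991). FNIP2 was most like NR1D2, KDM5B and NCAPG (r = 0.996 to 0.997), TFE3 like RNF40, TJAP1 and ELK1 (r = 0.987 to 0.988), MITF like MID1, SOX6 and CDYL (r = 0.976 to 0.983), and TFEB like USP21, TPRN and TOLLIP (r = 0.957 to 0.970). RRAGA followed TMEM203, BLOC1S4 and TLCD3A (r = 0.977 to 0.982) and ran against MITF (r = −0.901). RRAGB and RRAGD had weaker matches, UFD1, ETV4 and TRAM1 for RRAGB (r = 0.791 to 0.835) and GIGYF2, PLAGL2 and SLC25A51 for RRAGD (r = 0.735 to 0.760).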

How the data were processed

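Whole-number read counts per gene were used as the authors deposited them, 1 table per library with 63677 Ensembl identifiers and no normalization. Per the labels' protocols, poly(A) RNA was isolated on beads, libraries keep the strand, and single ends of 75 bp were read. The tools named, without roles, in the submitters' processing notes are edgeR, DESeq2, Picard, HTSeq 0.6.1p1 and STAR 2.4.2a, with build GRCh37 (hg19). The counting's strand setting and annotation were not given in the sources used here, so reads of overlapping genes may be misassigned. Lines of reads outside genes (9.39 to 15.1% no feature, 2.08 to 2.42% ambiguous) were left out.

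Names, exon lengths and GRCh38 coordinates came from GENCODE 29, another build than the notes name, which matched 52526 identifiers. Of 124 list entries 123 were matched (not CASTOR2). Counts were analysed in R 4.3.3 with edgeR 4.0.16 and limma 3.58.1. The filter filterByExpr kept 15179 genes, and libraries were scaled by TMM. A robust quasi-likelihood model with 1 mean per group was fitted to all 18 libraries (common biological coefficient of variation 6.72%). The code was also run on simulated counts in which far fewer genes changed than with EBSS. That run therefore does not test the scaling of the EBSS comparisons. A gene was called when its p, adjusted by Benjamini-Hochberg over all genes tested, was under 0.05. The standard error is the log2 fold change over the square root of the F value. CPM values are TMM-scaled, and likeness used log2 CPM with a prior count of 1 among genes with a mean of at least 1.

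Groups and replicate numbers came from the labels. The 9 comparisons set EBSS against full medium (3 lines), both knockout-labelled lines against WT (in either medium), and their EBSS responses against that of WT. Besides the 10 genes, the text names from each pathway list up to 4 called genes of the smallest p for EBSS in WT and up to 2 for each line against WT in full medium, marker genes reaching 1 CPM, and the 3 most similar genes; others named were chosen after their values were seen. The genes and lists were chosen with earlier results of these data known. Alternatives were DESeq2 1.42.0, its size factors, upper-quartile scaling, no filter, a fit of the compared groups, a replicate block and leaving out each library.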

Additional observations from a re-analysis of the deposited data

Results flagged for a closer look

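RRAGA and RRAGD responded to EBSS differently in the RB1CC1KO-labelled and WT lines by the interaction test in edgeR. RRAGA differed by log2 −0.57 ± 0.11 (adjusted p = 0.000661), having fallen by 0.88 in RB1CC1KO-labelled and by 0.31 in WT cells. RRAGD differed by −0.44 ± 0.10 (adjusted p = 0.00387), at −0.32 in RB1CC1KO-labelled and 0.12 in WT cells, the WT value not passing the test. Leaving out any 1 library kept both calls, at −0.61 to −0.51 for RRAGA and −0.49 to −0.35 for RRAGD. In full medium these lines did not differ past the threshold in either gene, at 0.02 ± 0.08 (adjusted p = 0.888) for RRAGA and 0.12 ± 0.07 (adjusted p = 0.250) for RRAGD. RB1CC1 RNA was not lowered in that line, and a knockout effect and another difference between the lines cannot be told apart. With 3 libraries per group, single libraries that stand apart were not tested for.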

How the results depend on the processing

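Each of the 10 genes was refitted in the 9 comparisons under 6 alternatives, and without each library in turn in the 3 or 5 comparisons that use it, 1200 values in all. None reversed a called direction, 1172 stayed on their side of the threshold, 16 lost a call, 8 gained one, and 4 values of RRAGB or RRAGD that were called in neither fit changed sign by more than their standard error. The numbers of genes called for EBSS stayed at 8 in WT, 8 in ATG7KO and 10 in RB1CC1KO-labelled cells throughout. For ATG7KO over WT in full medium, 2 genes were called, but 1 with no filter on low counts and 1 in the fit of the compared groups, where MITF was lost (adjusted p = 0.0558 and 0.0622). For ATG7KO over WT in EBSS, 1 instead of 2 was called with no filter, FNIP1 being lost (adjusted p = 0.0578). Leaving out 1 library at a time gave 1 to 2 genes for ATG7KO over WT in full medium, 0 to 3 for RB1CC1KO-labelled over WT in full medium, 1 to 2 for ATG7KO over WT in EBSS, 4 to 5 for RB1CC1KO-labelled over WT in EBSS, and 0 to 1 (ATG7KO) and 2 to 3 (RB1CC1KO-labelled) for the response differences. For RB1CC1KO-labelled over WT in EBSS, FNIP1 was gained in the fit of the compared groups (adjusted p = 0.0394) and with upper-quartile scaling (0.0448), and TFE3 with upper-quartile scaling (0.0462) and without RB1CC1KO EBSS replicate 3 (0.0489).

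Samples with the same replicate number did not deviate together in every pair (between WT EBSS and WT full medium, r = −0.0783, 0.239 and −0.101 for numbers 1, 2 and 3). For number 2, r was positive in every pair of groups without ATG7KO EBSS, up to 0.417 between the media in RB1CC1KO-labelled cells. It was negative in every pair with ATG7KO EBSS, down to −0.208 with RB1CC1KO full medium. Replicate 1 of ATG7KO EBSS instead had a positive r with number 2 of each other group, from 0.142 (WT EBSS) to 0.370 (RB1CC1KO full medium). The labels state no batch, and a shared origin of libraries, of the same number or across numbers, was not tested. A block by replicate number does not take in likeness across numbers. With the replicate number as a block, the counts were 8 in WT, 8 in ATG7KO and 10 in RB1CC1KO-labelled cells for EBSS, and 5 instead of 4 for RB1CC1KO-labelled over WT in EBSS, where TFE3 passed (adjusted p = 0.0319); the other counts did not change. Depth limits the precision of the low genes, such as TFEB with 57 to 237 reads per library.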
